A study of Mus musculus and synthetic construct with 32 samples.

Results

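Total RNA of whole mouse testes at postnatal day 8 (P8) was compared between Ythdc2 knockouts and both control genotypes at that age. The comparison held 4 of the 32 samples of the series, taken by their labelled age, tissue and genotype: 2 knockout libraries (YTHDC2 -/-), 1 heterozygous library (YTHDC2 +/-) and 1 wild-type library (YTHDC2 +/+), all on the C57BL/6J strain. Cas9 had been used to make a knock-in allele that carries a triple-stop cassette in exon 7 (Line #1) and a line lacking that exon (Line #2). The labels do not say which line gave a P8 library, whether the animals were littermates or whether testes were pooled. Embryos were edited, so the knockout is not limited to a cell type of the testis. With 1 library in each control group, differences between single animals and between genotypes cannot be told apart.

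Ythdc2 encodes an RNA helicase whose YTH domain binds N6-methyladenosine (m6A), a methyl mark on RNA. In male mice it acts in germ cells with its partner Meioc, and also with Rbm46 and the exonuclease Xrn1, as spermatogonia leave mitosis and enter meiotic prophase. At P8 the seminiferous cords hold Sertoli cells, undifferentiated spermatogonia and Kit-positive differentiating spermatogonia, with Leydig and peritubular cells between the cords, and most germ cells have yet to enter meiosis.

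The data were the authors' own comparisons of 74040 features: exons, introns, repeats and miRNA loci, each in sense and antisense. For each feature the table gives a mean normalized count over all libraries, and a log2 fold change and adjusted p for knockout over wild type, knockout over heterozygote and heterozygote over wild type. It holds no value per library, so no spread between replicates can be printed beside a value. The mean normalized counts summed to 42229589, of which 18836262 lay on sense exons and 12167964 on sense introns, and the depth of single libraries is unknown. A feature was called at an adjusted p below 0.05. The folds are drawn toward 0 where counts are few: across sense exons, the SD of the fold over wild type was 0.0120 at mean counts below 10 and 0.114 at 1000 or more. The knockout fold over wild type equalled the sum of the other folds within 0.001 for all 24354 features with a mean count of at least 100, so the 3 comparisons share their libraries and are not independent.

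The tissue matched its label by its defining markers. The authors' deposited table gave the germ cell gene Ddx4 a mean normalized count of 2591, the Sertoli cell gene Sox9 1674, the differentiating germ cell gene Kit 2746 and the Leydig cell gene Cyp17a1 1840. Insl3, another Leydig cell gene, stood at 5.77. In bulk tissue, fewer cells of a type and less RNA per cell cannot be told apart.

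The knocked-out gene itself was not called. In the authors' deposited table, exons of Ythdc2, on chromosome 18, had a mean normalized count of 752 and a log2 fold of -0.50 over wild type and -0.24 over heterozygote, both with an adjusted p of 1. Its introns were at 0.00 and -0.04 in the same table, with a mean count of 782. A lesion in a single exon is not checked by counts summed over all exons. In the P12 testis the exon fold of knockout over heterozygote was -1.29 in the authors' deposited table for that age, and the difference between the ages was not tested. The partner genes lay near 0 over wild type and over heterozygote in the authors' deposited table: Meioc at -0.07 and -0.04, Rbm46 at 0.02 and -0.05, and Xrn1 at 0.07 and 0.06. Stra8, the retinoic acid target that starts the meiotic programme, was at 0.01 and 0.01, and Kit at 0.17 and 0.09 in that table.

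The knockout testis differed from the wild type in 13 of 73331 features with a fold, which is 0.0177% of them. Of these, 8 were higher and 5 lower in the authors' deposited table. Sense exons gave 7 of the calls (0.035% of 20003), sense introns 2 (0.0108%), antisense reads over introns 3 (0.0187%) and sense repeats 1 (0.0827%). Antisense reads over exons, antisense repeats and miRNA loci gave 0, and the table holds adjusted p only, so a count at an unadjusted p cannot be given. By position, 8 of the 13 features lay on chromosome 1 and 3 on chromosome 14. Of sense exons with a position and a mean count of at least 100, these chromosomes held 5.62% and 3.32%. Against the heterozygote 13 features were called as well, again 0.0177%, but 12 of them were lower in the knockout and 1, Rpl21 exons, was higher. They were 9 sense exons (0.045%), 3 sense introns (0.0162%) and 1 antisense feature over introns (0.00623%). The single heterozygous library differed from the single wild-type library in 4 features (0.00545%), all higher in the heterozygote.

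The folds over both controls were set side by side, feature by feature. All 13 features called over wild type had the same sign over heterozygote, and 2 of them were called there too. The fold over wild type was larger in size for 12 of the 13, and the heterozygote lay between knockout and wild type in 12. These patterns are partly fixed by the selection on the fold over wild type, since both comparisons share the knockout libraries. Their share over all features was not counted, so they are no test of agreement. Of the 13 features called over heterozygote, 12 had the same sign over wild type, and for 11 of the 13 the heterozygous library stood above wild type while the knockout stood below the heterozygote. These counts are also partly fixed, by the selection on the fold over heterozygote and by the shared libraries.

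**Figure D1:**
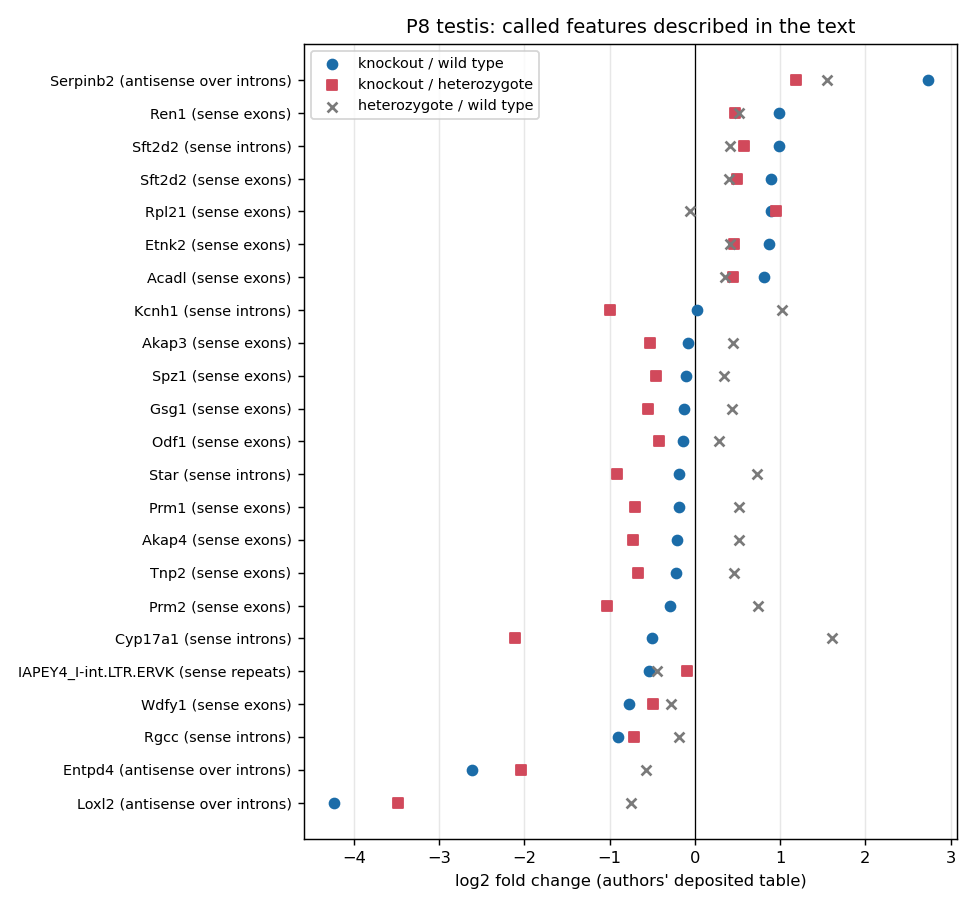
Log2 fold changes from the authors' deposited table for features called in any of the 3 comparisons and described in the text, with circles for knockout over wild type, squares for knockout over heterozygote and crosses for heterozygote over wild type. Chromosome 1 genes such as Ren1 (0.99, 0.46 and 0.52) have the heterozygote about midway, and spermatid genes such as Prm2 have it above wild type (0.74). Loxl2 antisense and Rpl21 are far from 0 against both controls. The features were selected by these same comparisons, which partly fixes where the heterozygote lies.

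Loxl2 antisense reads and Rpl21 exons were the 2 features called against both controls. Reads antisense to introns of Loxl2, which encodes a lysyl oxidase that crosslinks collagen, had the largest fold of any called feature. The authors' deposited table gave -4.23 over wild type (adjusted p = 7.78e-15) and -3.48 over heterozygote (adjusted p = 4.17e-09), at a mean normalized count of 147. The gene's own sense exons were at 0.06 and -0.09 and its sense introns at -0.13 and -0.11 in that table, so the lower signal was on the antisense strand. Rpl21, which encodes a protein of the large ribosomal subunit, was at 0.89 (adjusted p = 0.000268) and 0.95 (adjusted p = 4.97e-05) in its exons in the authors' deposited table, and at -0.10 and -0.07 in its introns. Rpl21 has many pseudogene copies, and its value is uncertain where the authors' counting could split reads between them. In P12 testis its exon fold was -0.21, uncalled, in the authors' deposited table for that age.

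Alad, which encodes an enzyme of haem synthesis, lay just outside the threshold against both controls. Its exon folds in the authors' deposited table were 0.70 (adjusted p = 0.0507) and 0.68 (adjusted p = 0.0567), with 0.02 for heterozygote over wild type, at a mean normalized count of 3613. Introns of Alad were at 0.55 and 0.62 in that table, so exon and intron reads were higher together. Reads antisense to exons of Bspry were at 1.04 and 1.21, uncalled, in the same table.

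Genes on chromosome 1 made up most of the larger folds over wild type. Among sense exons at a mean count of 100 or more, 18 of 11937 (0.151%) had a fold of at least 0.5 in size over wild type in the authors' deposited table, and 15 of these lay on chromosome 1, which held 5.62% of the genes with a position. Outside chromosome 1, 3 of 11233 genes passed that size. Against the heterozygote 9 genes passed it (0.0754%), 4 of them on chromosome 1, and between the control libraries 5 did (0.0419%), 3 of them on chromosome 1. Spread by chromosome, with no threshold on single genes, also differed: the SD of folds over wild type was 0.171 on chromosome 1, against 0.0889 to 0.114 on the other autosomes and the X. In introns, 33 of 9877 (0.334%) passed that size over wild type, 23 of them on chromosome 1, and 22 of those were higher; 17 passed it over heterozygote (0.172%), 3 of them on chromosome 1, and 11 between the controls (0.111%), 2 of them on chromosome 1. The size of 0.5 was chosen after the values were seen.

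**Figure D2:**
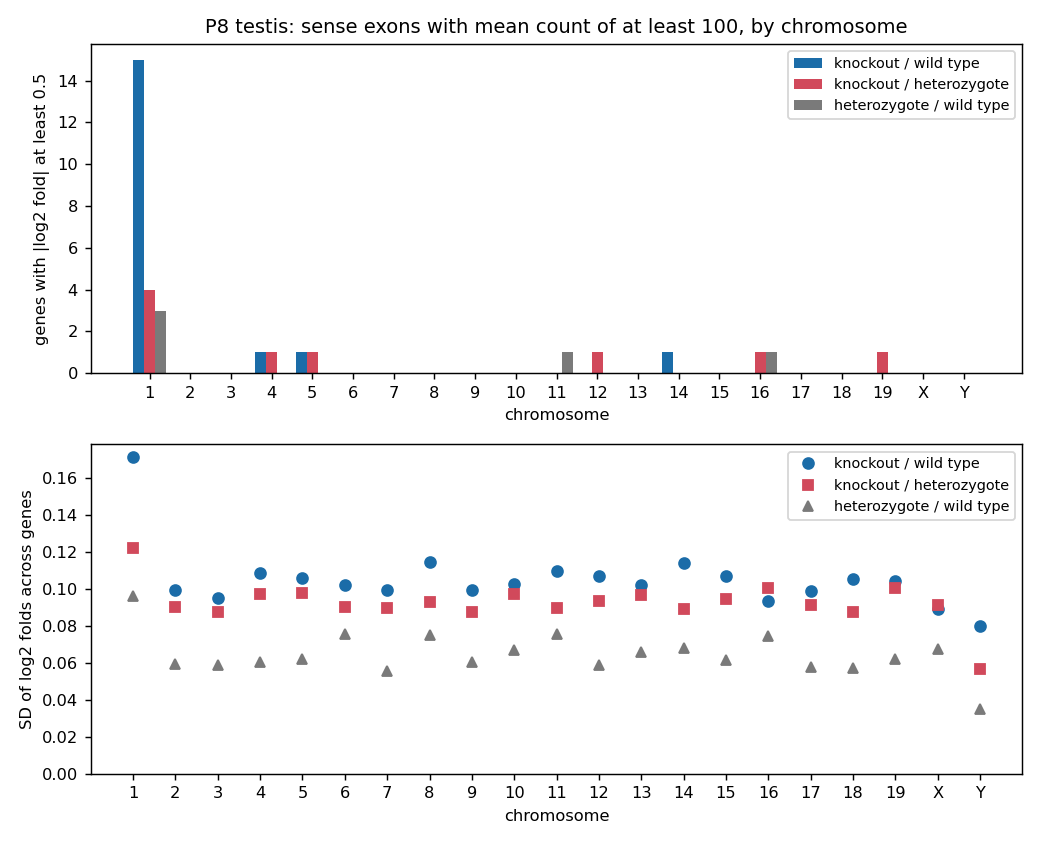
Sense exons at a mean count of 100 or more, by chromosome and comparison: the upper panel counts genes whose log2 fold is at least 0.5 in size, and the lower panel gives the SD of log2 folds across genes. Chromosome 1 has 15 such genes over wild type and an SD of 0.171, above every other chromosome in that comparison.

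Ren1, the renin gene, and its neighbour Etnk2, an ethanolamine kinase gene of phospholipid synthesis, were called together. The authors' deposited table gave Ren1 0.99 over wild type (adjusted p = 3.63e-05), 0.46 over heterozygote and 0.52 for heterozygote over wild type. Etnk2 was at 0.87 (adjusted p = 0.000527), 0.45 and 0.41 in the same table, and its introns at 0.67, 0.33 and 0.34. Introns of Ren1, at a mean count of 22.7, did not follow its exons, at -0.19 over wild type, -0.45 over heterozygote and 0.25 for heterozygote over wild type in that table, uncalled. The rest of the renin-angiotensin list, with Ace at 0.05 and Agt at -0.11 over wild type in that table, held no other call among the 9 measured genes.

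Ren1 and Etnk2 lie next to each other, and their promoters are shown because both were called in the same direction. These are the RefSeq promoter windows (GRCm38.p6, plus strand, 250 bases before to 50 after the start) at chr1:133350424-133350723 for Ren1 and chr1:133363322-133363621 for Etnk2, with a TATAAA match in capitals.
Ren1: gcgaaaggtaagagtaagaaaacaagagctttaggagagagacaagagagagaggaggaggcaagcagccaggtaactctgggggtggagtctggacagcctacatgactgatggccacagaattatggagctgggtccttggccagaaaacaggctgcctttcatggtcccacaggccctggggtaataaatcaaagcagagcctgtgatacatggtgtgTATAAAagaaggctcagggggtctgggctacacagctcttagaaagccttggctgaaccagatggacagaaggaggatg
Etnk2: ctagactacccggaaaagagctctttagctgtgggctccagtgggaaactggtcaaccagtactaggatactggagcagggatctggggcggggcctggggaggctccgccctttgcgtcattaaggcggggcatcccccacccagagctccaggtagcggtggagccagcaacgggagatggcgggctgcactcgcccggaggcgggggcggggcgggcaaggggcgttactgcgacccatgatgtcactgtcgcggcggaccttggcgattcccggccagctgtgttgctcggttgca
The motif TATAAA was searched on both strands (TTTATA on the other) and was found once in the Ren1 window, starting 29 bases before the start, and not in that of Etnk2; 13.6% of 32851 mouse promoter windows of this length hold it. The cyclic AMP response element TGACGTCA, held by 1.79% of windows, and CCAAT, held by 37.4%, had no match in either window. A match is a description of these letters and no match says nothing about a factor.

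Exons of Sft2d2, Acadl and Wdfy1, also on chromosome 1, were called as well. Sft2d2, a vesicle transport gene, was higher in exons and in introns. The authors' deposited table gave its exons 0.90 (adjusted p = 0.000336) over wild type and 0.49 over heterozygote, and its introns 0.98 (adjusted p = 0.0257) and 0.58. Acadl, which encodes long-chain acyl-CoA dehydrogenase of mitochondrial fatty acid oxidation, was at 0.81 over wild type (adjusted p = 0.00531) and 0.45 over heterozygote in the authors' deposited table. Wdfy1, which encodes an endosomal adaptor with a FYVE domain, was the called exon that fell, at -0.77 (adjusted p = 0.0136) over wild type and -0.49 over heterozygote in the authors' deposited table, while its introns were at 0.37 and 0.28. Uncalled genes past 0.5 in size included the mesenchymal transcription factor gene Prrx1 at 0.67, the p53 target Phlda3 at 0.59 and the muscle calcium channel gene Cacna1s at -0.58 over wild type in that table.

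Along chromosome 1 the folds over wild type spread most between 120 and 140 Mb and between 150 and 170 Mb. The 15 exon genes past 0.5 in size started at or beyond 66830839 (GRCm38), where Acadl lies, 11 higher and 4 lower in the knockout. These genes were chosen by the fold over wild type, the sum of the other folds, which partly fixes the pattern that follows. Their median size was 0.66 over wild type, 0.36 over heterozygote and 0.35 for heterozygote over wild type, all in the direction of the knockout. The heterozygote lay between in 14 of the 15. In the authors' deposited tables for the other gonads, the median of the same genes in that direction was -0.07 in P12 testis and 0.25 in P0 ovary, each knockout over heterozygote; the difference between the tables was not tested. In windows of 10 Mb, a width chosen after the values were seen, the SD over wild type lay between 0.0937 and 0.114 below 60 Mb and reached 0.262 between 150 and 160 Mb. Between 180 and 190 Mb the SD was 0.118 over wild type and 0.110 for heterozygote over wild type, and between 190 and 200 Mb it was 0.0879 and 0.166. From these last windows, Srp9 and Kcnh1 are given because the heterozygote stood apart in them, as seen in their values. Srp9 was at -0.04 over wild type but 0.53 over heterozygote, and heterozygote over wild type was at -0.57, in the authors' deposited table. Kcnh1 introns, of a potassium channel gene in that region, were at 0.03 over wild type, -0.99 over heterozygote (adjusted p = 0.00654) and 1.02 for heterozygote over wild type (adjusted p = 0.00111) in the same table. Introns of F11r, a tight junction gene proximal to it, were at 0.57 over wild type with the heterozygote close to wild type at 0.00 in the authors' deposited table.

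**Figure D3:**
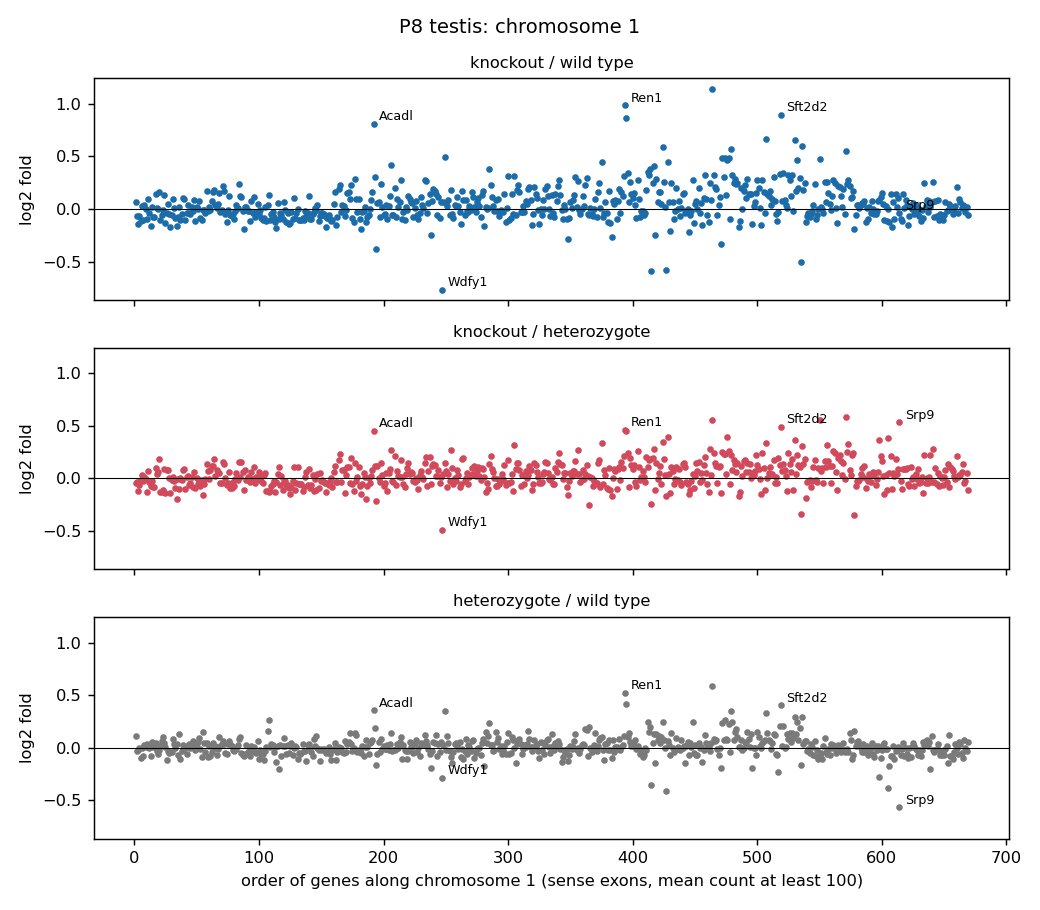
Log2 folds of chromosome 1 genes (sense exons, mean count of 100 or more) in order along the chromosome, in 3 panels for the 3 comparisons. Folds over wild type are wide around Ren1 and Sft2d2 and narrower toward the distal end, and Sft2d2 goes from 0.90 over wild type to 0.49 over heterozygote; Srp9 stands apart in the lower panels at 0.53 and -0.57.

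Among genes with larger exon folds over wild type, most of them on chromosome 1, exon and intron reads mostly had folds of the same sign. The share over all genes was not counted. Of 16 genes whose exons had a fold of at least 0.5 in size over wild type and whose introns had a mean count of at least 100, 13 had introns of the same sign, with a median of 0.49 in the direction of the exons. Wdfy1 (introns at 0.37), Ptprv (0.09 beside exons at -0.59) and Rpl21 (-0.10) were the exceptions in the authors' deposited table. In the heterozygous library the introns of Cyp17a1 were called over wild type while its exons lay near 0. Introns of Cyp17a1, which encodes the steroid 17-alpha-hydroxylase of Leydig cells, were at 1.61 for heterozygote over wild type (adjusted p = 5.13e-13) and -2.11 for knockout over heterozygote (adjusted p = 3.24e-22) in the authors' deposited table, while its exons were at -0.06 and 0.01. Introns of Star, the mitochondrial cholesterol carrier, were at 0.73 and -0.91 in those comparisons (adjusted p of 0.373 and of 0.0134), with exons at -0.16 and -0.13. Fdx1 introns, of the electron donor to steroid enzymes, were at 0.63 for heterozygote over wild type beside exons at 0.04 in the authors' deposited table, uncalled. Not every steroid gene did so: Hsd17b3 introns were at 0.13 and its exons at 0.17 for heterozygote over wild type in that table. Knockout over wild type was at -0.50 for Cyp17a1 introns and -0.18 for Star introns in that table, both uncalled, so these calls against the heterozygote were not matched against wild type.

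**Figure D4:**
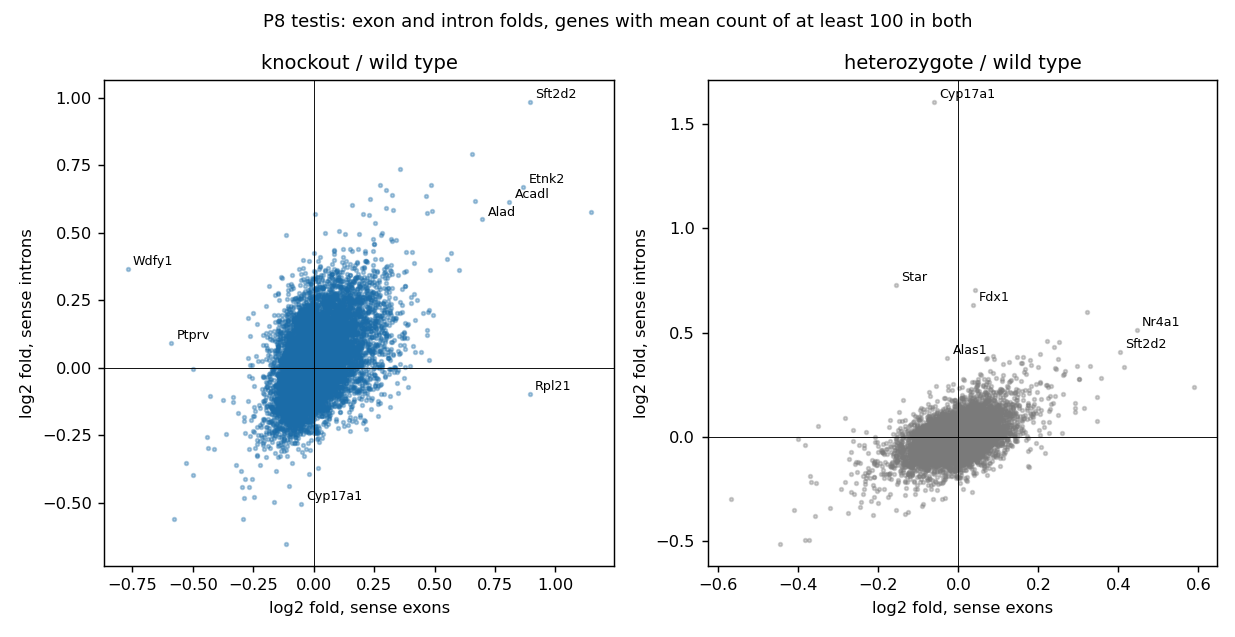
Exon against intron log2 folds of genes at a mean count of 100 or more in both, for knockout over wild type and for heterozygote over wild type. Sft2d2, Etnk2 and Alad are high in both kinds of read in the first panel, and Cyp17a1, Star and Fdx1 are high in introns only in the second.

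On chromosome 14, antisense reads over introns of 4 genes between 66153257 and 69695834 (GRCm38) had negative folds against both controls, and those of Entpd4 and Loxl2 were called over wild type. Over wild type, Ptk2b stood at -2.29 (adjusted p = 0.0542), Slc25a37 at -2.01 (adjusted p = 0.309), Entpd4 at -2.61 (adjusted p = 0.00358) and Loxl2 at -4.23 in the authors' deposited table. All 4 also passed 1 in size over heterozygote, at -1.54, -1.77, -2.04 and -3.48 in the same table, with the heterozygote at -0.75, -0.24, -0.57 and -0.75 over wild type. Antisense folds of genes between and beside them were smaller in size: Dpysl2 was at -0.62, Pebp4 at 0.28 and Ccar2 at 0.10 over wild type in that table. Sense exons of Ptk2b were at -0.14, of Slc25a37 at 0.05 and of Entpd4 at -0.53. Entpd4 has a near-identical neighbouring copy, so its values are uncertain. In all, 17 of 4688 antisense intron features with a mean count of at least 10 (0.363%) passed 1 in size over wild type. That size was chosen after the values were seen. The 4 of chromosome 14 were lower and the 7 of chromosome 1 higher. Chromosome 14 held 3.64% and chromosome 1 5.42% of such features with a position. Over heterozygote 9 passed (0.192%), and between the controls 4 did (0.0853%). Of the chromosome 1 features, Serpinb2 antisense reads were at 2.73 (adjusted p = 0.000568) over wild type, 1.18 over heterozygote and 1.55 for heterozygote over wild type in the authors' deposited table, at a mean count of 72.1, whereas sense exons of Serpinb2 had a mean count of 2.13. Rgcc introns, also on chromosome 14, were at -0.90 (adjusted p = 0.0288) and -0.71 in that table.

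By their medians, spermatid transcripts were higher in the heterozygous library than in the knockout and wild-type libraries. Of 35 measured genes of spermatids and later spermatocytes, 34 lay above 0 for heterozygote over wild type and 34 below 0 for knockout over heterozygote. The medians were 0.17 and -0.19, and the median over wild type was -0.04. Both comparisons hold the single heterozygous library, on opposite sides, so their opposite signs are partly fixed and are not independent. Of all 15592 exons with a mean count of at least 10, 7832 lay above 0 and 7545 below 0 in those comparisons. Of the 35 genes, 6 were called lower over heterozygote. Prm2 and Prm1, the protamine genes that compact sperm DNA, were at -1.03 (adjusted p = 4.30e-09) and -0.70 (adjusted p = 5.00e-05) over heterozygote in the authors' deposited table, and at 0.74 (adjusted p = 0.000147) and 0.51 (adjusted p = 0.0226) for heterozygote over wild type. Over wild type they were at -0.29 and -0.19 in the same table, uncalled. Tnp2, Akap4, Akap3 and Odf1 of the same list were called over heterozygote at -0.67, -0.73, -0.52 and -0.42 in the authors' deposited table, and Gsg1 and Spz1, germ cell genes outside it, at -0.55 and -0.45. Their mean normalized counts were low, from 38.2 for Odf1 to 164 for Prm2. They did not follow age in the authors' deposited tables for the other gonads. Prm2 had a mean count of 0.83 in P12 testis and 69.6 in P0 ovary, and Tnp2 0.66 and 30.5. Akap3 was at 17.3 and 18.1. Whether these reads came from germ cells of the P8 testis was not tested. The part of the heterozygous library in these calls was not tested beyond the values over wild type.

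Gene lists of the P8 cell types were shifted by at most 0.10 in their medians over wild type, beside a median of 0.00 over all 15592 exons with a mean count of at least 10, of which 7813 lay above 0. Over heterozygote 8047 of these exons lay above 0, and for heterozygote over wild type 7832 did. No list member was called over wild type except Ren1. Meiotic entry and prophase I genes had a median of -0.03 over wild type and -0.04 over heterozygote, with 30 of 40 below 0 in each; Hormad1, a protein of the unsynapsed chromosome axis, was at -0.23 and -0.13 in the authors' deposited table. Genes of the mitotic cell cycle had medians of -0.05 and -0.10, with 26 and 32 of 34 below 0. For heterozygote over wild type their median was 0.05, with 32 of 34 above 0. By these medians the wild type lay between knockout and heterozygote, and which genotype stood apart was not tested. Both comparisons with the heterozygote hold its single library, so their opposite signs are partly fixed. The cell cycle kinase gene Cdk1 was at -0.20 and -0.24 in the authors' deposited table and the replication licensing gene Cdt1 at 0.31 and 0.21.

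Genes of the undifferentiated spermatogonia had medians of 0.07 and 0.05, with 18 and 19 of 23 above 0, and those of Kit signalling and differentiating spermatogonia 0.05 and 0.04. Egr4, a zinc finger factor of the stem cell pool, was at 0.27 and 0.24, and Zbtb16 at 0.19 over wild type, in the authors' deposited table. The lowest members of the undifferentiated list included Gfra1 at -0.06 and 0.01 and Nanos2 at -0.07 and -0.05 in that table. Germ cell and piRNA genes were at 0.01 and -0.03. Of the somatic lists, Leydig cell genes had a median of -0.10 over both controls, with 14 of 17 below 0 in each. Near the low end, Hsd17b3, which makes testosterone from androstenedione, was at -0.29 and -0.46 in its exons in the authors' deposited table. Its introns were at -0.56 and -0.69. The highest member of that list, Scarb1, was at 0.16 and 0.31, and exons of Cyp17a1 were at -0.05 and 0.01 in the same table. Sertoli cell genes were at -0.02 and 0.04, changing sign with the control, although Sox9 was at 0.31 and 0.36 in that table. Macrophage and leukocyte genes were at 0.09 and 0.08, with 13 and 15 of 17 above 0, and Lyz2 at 0.17 and 0.19 in the authors' deposited table. Peritubular and stromal genes were at 0.01 and -0.07.

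Among pathways close to the function of Ythdc2, cytoplasmic RNA decay genes had medians of 0.03 and 0.05, with 21 and 23 of 30 above 0. Upf1, the helicase of nonsense-mediated decay, was at 0.29 and 0.25, Ddx6, the helicase of processing bodies, at 0.24 and 0.24, and Cnot3 of the deadenylase complex at 0.23 and 0.24 in the authors' deposited table. At the low end of that list, Exosc3 of the RNA exosome was at -0.13 and -0.15 and Ttc37 of the Ski complex at -0.14 and -0.13 in the same table. Writers, erasers and readers of m6A had medians of 0.04 and 0.06, with the reader Igf2bp1 at 0.20 and 0.18 and its paralogue Igf2bp3 at -0.10 and -0.17 in that table. Retinoic acid pathway genes were at 0.02 and 0.05, and Cyp26b1, the enzyme that degrades retinoic acid, at 0.20 and 0.23. Interferon response genes, 16 of them measured, had medians of -0.03 and 0.00 with 0 called. Targets of p53 had medians of 0.03 and 0.03; their highest member Phlda3 lies on chromosome 1.

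**Figure D5:**
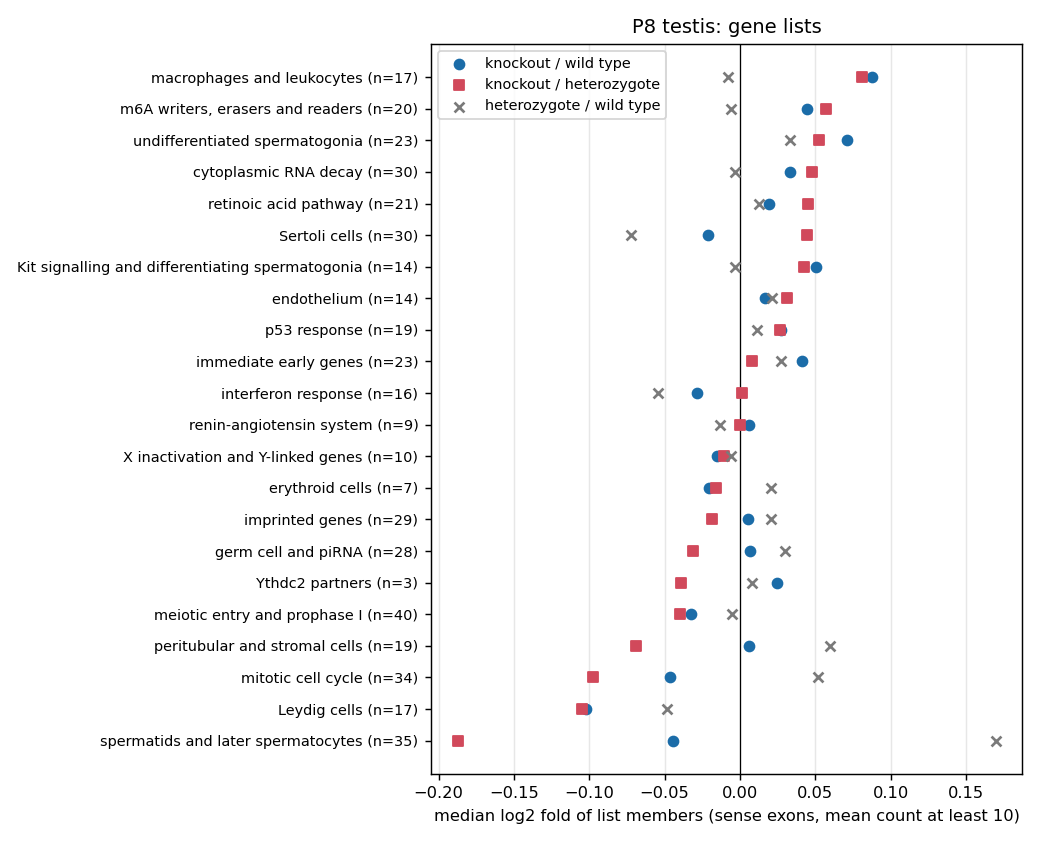
Median log2 fold of each gene list (sense exons at a mean count of 10 or more, n measured members in brackets) in the 3 comparisons. Spermatid and cell cycle lists lie on opposite sides of 0 for knockout over heterozygote and heterozygote over wild type, and Leydig cell genes lie at -0.10 against both controls. The comparisons with the heterozygote share its single library, which partly fixes their opposite signs.

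Repeats differed little. The called family was IAPEY4_I-int, an internal part of an endogenous retrovirus of the ERVK class, at -0.53 over wild type (adjusted p = 0.00340) in the authors' deposited table, at a mean normalized count of 3244. It was at -0.09 over heterozygote and -0.44 for heterozygote over wild type, so the heterozygote lay closer to the knockout than to the single wild-type library. In P12 testis its fold of knockout over heterozygote was 0.07, uncalled, in the authors' deposited table for that age. In P0 ovary it was called in the other direction, at 0.63 (adjusted p = 2.48e-18). The difference between the tables was not tested. At P8, antisense reads of the same family were at -0.05 over wild type and 0.02 over heterozygote. The related IAPEz-int was at -0.24 and -0.04 in the authors' deposited table. Other relatives did not follow it: IAPEy-int was higher, at 0.19 and 0.24, and IAP-d-int was at -0.08 and -0.06 in the same table. Across families with a mean count of at least 100, sense ERVK repeats had a median of -0.03 over wild type and -0.02 over heterozygote, L1 elements 0.01 and 0.00, and ERVL-MaLR repeats 0.04 and 0.03, with 63 and 62 of 88 above 0.

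No miRNA locus was called, and the smallest adjusted p over wild type among 155 loci with a mean count of at least 10 was 1. The SD of folds across these loci was 0.280 over wild type and 0.277 over heterozygote, with medians of -0.01 and 0.00. The libraries were made from total RNA, so reads over a locus need not be mature miRNA. Loci that were lower against both controls included members of a cluster on the X chromosome and of the let-7 cluster on chromosome 13, clusters named after the values were seen. Lower folds were not limited to them: mir-202 was at -0.50 over wild type and -0.28 over heterozygote. Others were higher against both controls, such as mir-3063 at 0.87 and 0.69. Locus mir-6516, at a mean count of 337, was at 0.40 and 0.61. Over wild type and over heterozygote, the authors' deposited table gave mir-322 -0.36 and -0.57, mir-351 -0.44 and -0.73, and mir-503 -0.61 and -0.33. Loci of let-7d were at -0.45 and -0.58 and of let-7f-1 at -0.49 and -0.40 in the same table, and let-7a-1 at -0.14 and -0.31. The mature 5p sequences of these loci from RefSeq (GRCm38.p6) are shown with the seed, bases 2 to 8, in capitals, because seeds group them.
miR-322-5p: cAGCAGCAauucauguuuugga
miR-503-5p: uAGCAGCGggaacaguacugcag
miR-351-5p: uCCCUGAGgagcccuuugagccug
let-7d-5p: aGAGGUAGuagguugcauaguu
let-7f-5p: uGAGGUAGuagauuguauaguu
The let-7 members share the seed GAGGUAG, the family that targets Lin28a and cell cycle genes. The seeds of miR-322-5p and miR-503-5p, related to that of miR-16, are alike except in their last base, and miR-351-5p has the seed of the miR-125 family. The folds of these low-count loci carry no call and are given as values only.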

How the data were processed

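Total RNA of P8 testes was sequenced in 2 knockout, 1 heterozygous and 1 wild-type library with a stranded, ribosomal RNA depleting kit, per the labels' protocols. The authors deposited a table of their own comparisons: per the file headers, the mean of normalized counts (a signal pooled over libraries), log2 fold changes and adjusted p-values for each feature. The submitters' processing notes name DESeq2 and mm10; their versions, the aligner, the counting, the annotation and any shrinkage of folds were not stated in the sources read here. Column headers carry the words IP and input although the labels list total RNA, and were read as knockout over control. A model of counts in each library had been planned and could not be run, since the table has no values per library. Calls used an adjusted p below 0.05 over all features. Lists and floors (mean counts of 10 and 100) were read with pandas 2.3.3 and numpy 2.4.6 in Python 3.11.15 on 22 gene lists, described by counts and medians with no test, and the scripts were tested on simulated data. Positions and names came from RefSeq GRCm38.p6, which matched 19980 of 20142 exon names. Named features were every called one, those with the largest folds of one sign against both controls, Ythdc2 and its partners, list members with the highest and lowest folds, and the largest folds between the controls; others were named for their position or kind after values were seen. The members and lists were chosen with earlier results of these data known. With 1 library in each control group, p-values rest on the spread the authors' model estimated. Some called or otherwise chosen features are not reported here, though counts include them.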

Additional observations from a re-analysis of the deposited data

How the results depend on the processing

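Requiring a call against both controls left 2 of the 13 features called over wild type. The 13 calls over heterozygote became 6 at a mean normalized count of at least 100, since most spermatid genes lie below it. Other thresholds of adjusted p (0.1 and 0.01) and that count floor gave 16, 10 and 11 features over wild type, 16 and 9 over heterozygote for the thresholds, and 6, 3 and 3 between the controls. With the heterozygote as control, an alternative chosen after the data were seen, 11 of the 13 features called over wild type were no longer called and 0 changed sign. The shared knockout libraries and the selection by fold over wild type partly fix that sign. Of the 22 lists, 14 had a median above 0 over wild type, and 11 to 15 under the other settings; 7 lists changed sign with the heterozygote as control, all with medians within 0.07 of 0. No paired analysis was possible because the table holds no values per library and each control has 1 library. Leaving out each replicate in turn was not run for the same reason, so whether 1 knockout library decides a value was not tested. Depth per library is unknown, and folds of features with few counts are drawn toward 0.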
